A study of Homo sapiens with 2 samples.

Results

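The G2/M and mitosis genes are 49 protein-coding genes, most with products that act between the end of DNA replication and the separation of daughter cells. They were taken by name from both count tables, with the mitotic kinases other than CDK1 left out, and make up 49 of the 16387 genes listed in both. The study measured single-cell transcriptomes of MCF10A, a non-tumorigenic human breast epithelial cell line, in 2 libraries that are 2 biological replicates. Within a library all conditions carried sample tags and were pooled into 1 tube. Every cell kept here had a single tag, and each library held 8 conditions. Those were the MEK inhibitor at 20 h, the PI3K inhibitor at 20 h, EGF alone at 20 h, the MEK inhibitor at 30 h, the PI3K inhibitor at 30 h, EGF alone at 30 h, EGF at 15 h and unstimulated cells at 0 h. Times count from the addition of epidermal growth factor (EGF), and the inhibitors were added at 15 h, so that every inhibited culture had also received EGF. The labels give neither a name nor a dose for either inhibitor.

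Before a cell divides it copies its DNA, and then accumulates cyclin B and other proteins of mitosis during G2. Cyclin B with CDK1 starts mitosis once CDC25 phosphatases remove inhibitory phosphates, a spindle of microtubules and motor proteins attaches to kinetochores, and the anaphase-promoting complex with CDC20 then lets the chromosomes part. Many of these genes are transcribed together late in the cycle, and promoters of this class are known for a CHR element near the gene start, bound by the DREAM and MYB-MuvB complexes, and for CCAAT boxes, bound by NF-Y. The MEK-ERK and PI3K-AKT pathways both carry the EGF signal into the cell, and both are known to take part when growth factors bring resting cells into the cycle.

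Since the genes moved together in these data, their promoters are shown first. The 6 windows below run from 125 bases before to 25 bases after each gene start in RefSeq (GRCh38.p14), 5′ to 3′ on the gene's strand. They are those of PSRC1, which fell most with the PI3K inhibitor at 30 h, HMMR, which rose most with the MEK inhibitor at 20 h, CKS2, MKI67 and CCNB2 as further examples with both motifs, and CDC25B, which fell least with the PI3K inhibitor at 30 h. Capitals mark every match to the CHR element (TTTGAA or TTCGAA) and to the CCAAT box on either strand. On the other strand a CCAAT box appears as ATTGG and the first form of the CHR element as TTCAAA.
PSRC1, chr1:109283121-109283270, minus strand: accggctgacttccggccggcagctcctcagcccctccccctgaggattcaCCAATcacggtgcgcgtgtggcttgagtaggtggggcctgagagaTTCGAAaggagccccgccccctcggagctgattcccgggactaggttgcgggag
HMMR, chr5:163460507-163460656, plus strand: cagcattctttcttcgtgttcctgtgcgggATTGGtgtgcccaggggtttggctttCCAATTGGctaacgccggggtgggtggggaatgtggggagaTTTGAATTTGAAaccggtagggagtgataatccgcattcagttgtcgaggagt
CKS2, chr9:89311070-89311219, plus strand: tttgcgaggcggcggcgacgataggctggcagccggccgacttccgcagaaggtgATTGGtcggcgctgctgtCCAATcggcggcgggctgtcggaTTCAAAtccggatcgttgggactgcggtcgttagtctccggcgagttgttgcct
MKI67, chr10:128126399-128126548, minus strand: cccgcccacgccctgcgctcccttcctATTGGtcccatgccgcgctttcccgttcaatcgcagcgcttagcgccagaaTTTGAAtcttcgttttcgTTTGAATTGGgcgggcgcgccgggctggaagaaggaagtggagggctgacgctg
CCNB2, chr15:59105021-59105170, plus strand: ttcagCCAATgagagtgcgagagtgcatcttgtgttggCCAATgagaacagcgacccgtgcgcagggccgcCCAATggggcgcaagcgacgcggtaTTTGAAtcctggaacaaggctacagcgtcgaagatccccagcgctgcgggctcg
CDC25B, chr20:3786826-3786975, plus strand: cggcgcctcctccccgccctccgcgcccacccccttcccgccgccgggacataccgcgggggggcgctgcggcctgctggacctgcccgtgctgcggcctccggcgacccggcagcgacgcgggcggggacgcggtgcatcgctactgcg
The HMMR window holds a CCAAT box and its reverse complement that share bases, followed by 2 CHR matches end to end. In the MKI67 window the second CHR match runs into an ATTGG. The CDC25B window holds no match to either motif.

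RefSeq gave a promoter of 300 bases, 250 before and 50 after the start, for 42 of the 49 genes. ANP32E, BIRC5, CDCA2, FAM83D, RACGAP1, TPX2 and UBE2C had none in the table. A CHR element was found in 31 of the 42 promoters (73.8%), against 16.6% of all 27305 promoters of the same length, and a CCAAT box in 29 (69.0%), against 35.7%. At least 2 CCAAT boxes stood in 21 (50.0%), against 11.3%, and both motifs in 26 (61.9%), against 6.58%. Positions differed as well, since 54.8% of the promoters of the genes had a CHR match within 50 bases of the start, against 5.05% of all promoters, and 50.0% had a CCAAT box between 75 and 50 bases before it, against 7.87%. The promoters of the genes had a median GC content of 62.3%, and all promoters 58.3%. These are counts of letters in a window and say nothing of whether a factor was bound there in these cells.

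**Figure D1:**
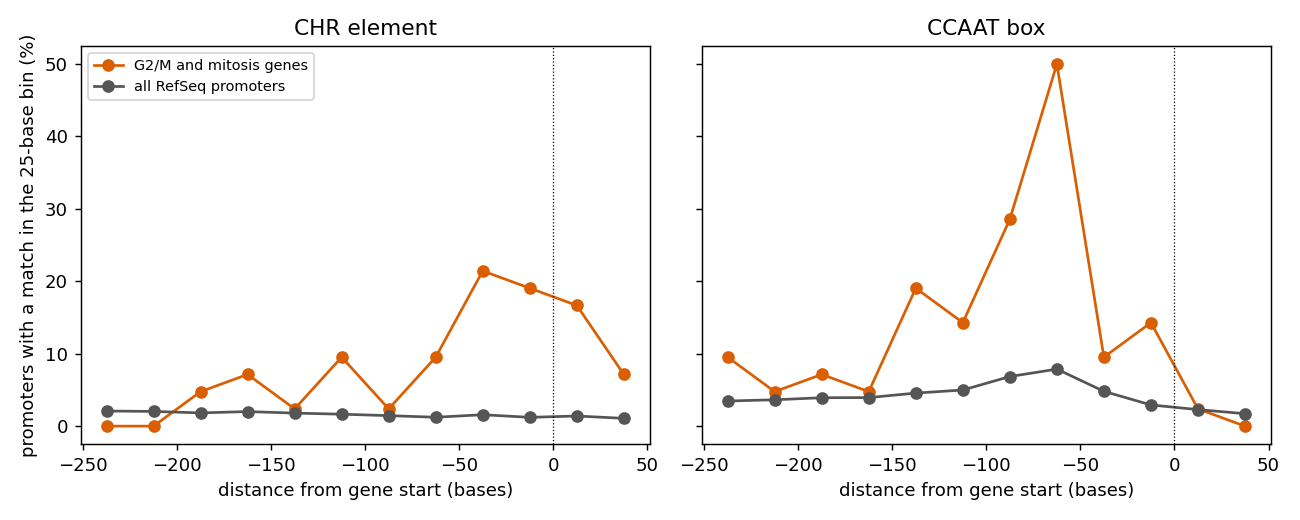
Share of promoters (%) with a motif match in each 25-base bin, against the distance of the bin from the gene start in bases, for the CHR element (left) and the CCAAT box (right). Orange points are the 42 promoters of G2/M and mitosis genes and grey points all 27305 RefSeq promoters. CHR matches of the genes gather within 50 bases of the start and CCAAT boxes between 75 and 50 bases before it, where 50.0% of the promoters have one.

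The 2 libraries held 2616 and 2221 cells with 33089090 and 28542571 unique molecular identifiers (UMIs, each a counted transcript), a median of 12259 and 12332 per cell, and shared no cell barcode. UMIs were summed per library and condition into 16 sums, of 29 to 616 cells each. The smallest was the unstimulated sum of library 2, with 29 cells and 213216 UMIs, and it also resembled its counterpart least, with a correlation across genes of 0.906, against 0.964 to 0.985 in the other 7 conditions. Levels are given as CPM, a count scaled to the depth of its sum with TMM-adjusted library sizes, for libraries 1 and 2 in that order. A gene was called when the adjusted p of edgeR's quasi-likelihood test, adjusted by the Benjamini-Hochberg method over all 11147 genes tested, was under 0.05 in a fit with a term for the library, and "rose" and "fell" are used of called genes only. All 49 genes passed the filter on low counts. With 2 libraries a group, an exact two-sided permutation test of any single value cannot go below p = 0.333, so values other than these fits are described without a test. The keratin genes KRT5, KRT14 and KRT17 had lowest levels of 1821, 6668 and 1228 CPM over the 16 sums. The other epithelial markers were lower, with KRT18 at 188 to 761 CPM, ITGB4 at 70.5 to 597 and LAMB3 at 52.8 to 593. CDH1 stood at 11.9 to 79.3 CPM, TP63 at 7.98 to 22.0 and EPCAM at 0.841 to 11.2. Of 13 markers of blood, endothelial, stromal, muscle and glial cells, 6 were not in both tables and DCN reached the highest level, 5.67 to 109 CPM.

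After EGF the genes came up late. Together they took 0.0548% and 0.184% of all UMIs in unstimulated cells of libraries 1 and 2, 0.0810% and 0.146% at 15 h, 0.197% and 0.284% at 20 h, and 0.539% and 0.791% at 30 h. The share was higher in library 2 than in library 1 in all 8 conditions, and the groups at 20 h and 30 h did not overlap. In a summed sample more cells of one kind and more RNA per cell cannot be told apart, so the sums are followed below by the single cells.

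At 15 h, against unstimulated cells, 4 of the 49 genes rose and 1 fell, where 14.1% of all genes tested rose and 13.9% fell, and 2 rose and 1 fell with RLE size factors in place of TMM. KIF20B, a kinesin of cytokinesis, stood at 25.7 and 46.8 CPM at 15 h and at 5.05 and 35.3 CPM in unstimulated cells, which was 1.53 (SE 0.38, adjusted p = 0.0014) as a log2 fold change. CDC20, the activator of the anaphase-promoting complex, rose by 1.25 (SE 0.38), CDC25B by 0.80 and the CDK-binding protein gene CKS1B by 0.43. PTTG1, which encodes securin, the inhibitor of the enzyme that cuts cohesin, was the gene that fell, with 66.6 and 85.0 CPM at 15 h and 109 and 216 CPM in unstimulated cells (-0.90 (SE 0.18, adjusted p = 7.41e-05)). Levels of KIF20B at 15 h in library 1 and of unstimulated cells in library 2 overlapped, and the counts rested on single sums. Without the unstimulated sum of library 1 they were 0 higher and 3 lower, and without that of library 2 they were 9 higher and 1 lower.

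From 15 to 20 h with EGF, 43 of the 49 genes rose and 0 fell, where 3.44% of all genes tested rose and 1.66% fell. The median log2 fold change of the 49 was 1.62, with a range of -0.01 to 2.97. NDC80, which encodes the outer kinetochore protein that grips microtubules, stood at 18.1 and 27.1 CPM at 20 h and 2.20 and 4.25 CPM at 15 h (2.97 (SE 0.30, adjusted p = 1.80e-10)). CDCA3, a substrate-recognition protein gene of mitotic entry, rose by 2.46, the spindle gene GTSE1 by 2.41, MKI67, whose protein coats mitotic chromosomes, by 2.40, and KIF2C, a microtubule depolymerase at centromeres, by 2.35. CDC25C was called as well, but had only 3 and 0 UMIs at 15 h and 17 and 8 UMIs at 20 h in libraries 1 and 2. The 6 genes that were not called were RANGAP1, CKAP5, PSRC1, ARL6IP1, ANP32E and CDC25B, with log2 fold changes of 0.17, 0.23, -0.01, 0.29, 0.30 and 0.04. Without the 15 h sum of library 1 the count of called genes was 15.

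From 20 to 30 h all 49 genes rose, where 4.51% of all genes tested rose and 3.27% fell. The median log2 fold change was 1.37, and the range ran from 0.60 for RANGAP1 to 3.39 for PSRC1, a regulator of spindle microtubules. PSRC1 stood at 11.6 and 24.6 CPM at 30 h and 1.28 and 1.91 CPM at 20 h (3.39 (SE 0.32, adjusted p = 7.45e-12)), from 8 and 6 UMIs at 20 h. CCNB1, which encodes cyclin B1, stood at 216 and 375 CPM at 30 h and 52.1 and 77.2 CPM at 20 h (2.14, SE 0.12), and CCNB2, which encodes cyclin B2, rose by 2.06. CDKN3, a phosphatase that acts on CDKs, rose by 2.21, and CENPF, a large kinetochore protein gene, and DLGAP5, which encodes a spindle assembly factor, each by 2.15. By role, the median rise in this interval was 1.75 for the 4 genes of anaphase and exit, 1.53 for the 9 genes of cyclins, CDK1 and their regulators, 1.5 for the 13 spindle genes, 1.48 for the 11 centromere and kinetochore genes, 1.06 for the 5 genes of chromosomes and chromatin and 0.95 for the 6 cytokinesis genes. ARL6IP1 was placed in none of these roles, and differences between roles were not tested.

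**Figure D2:**
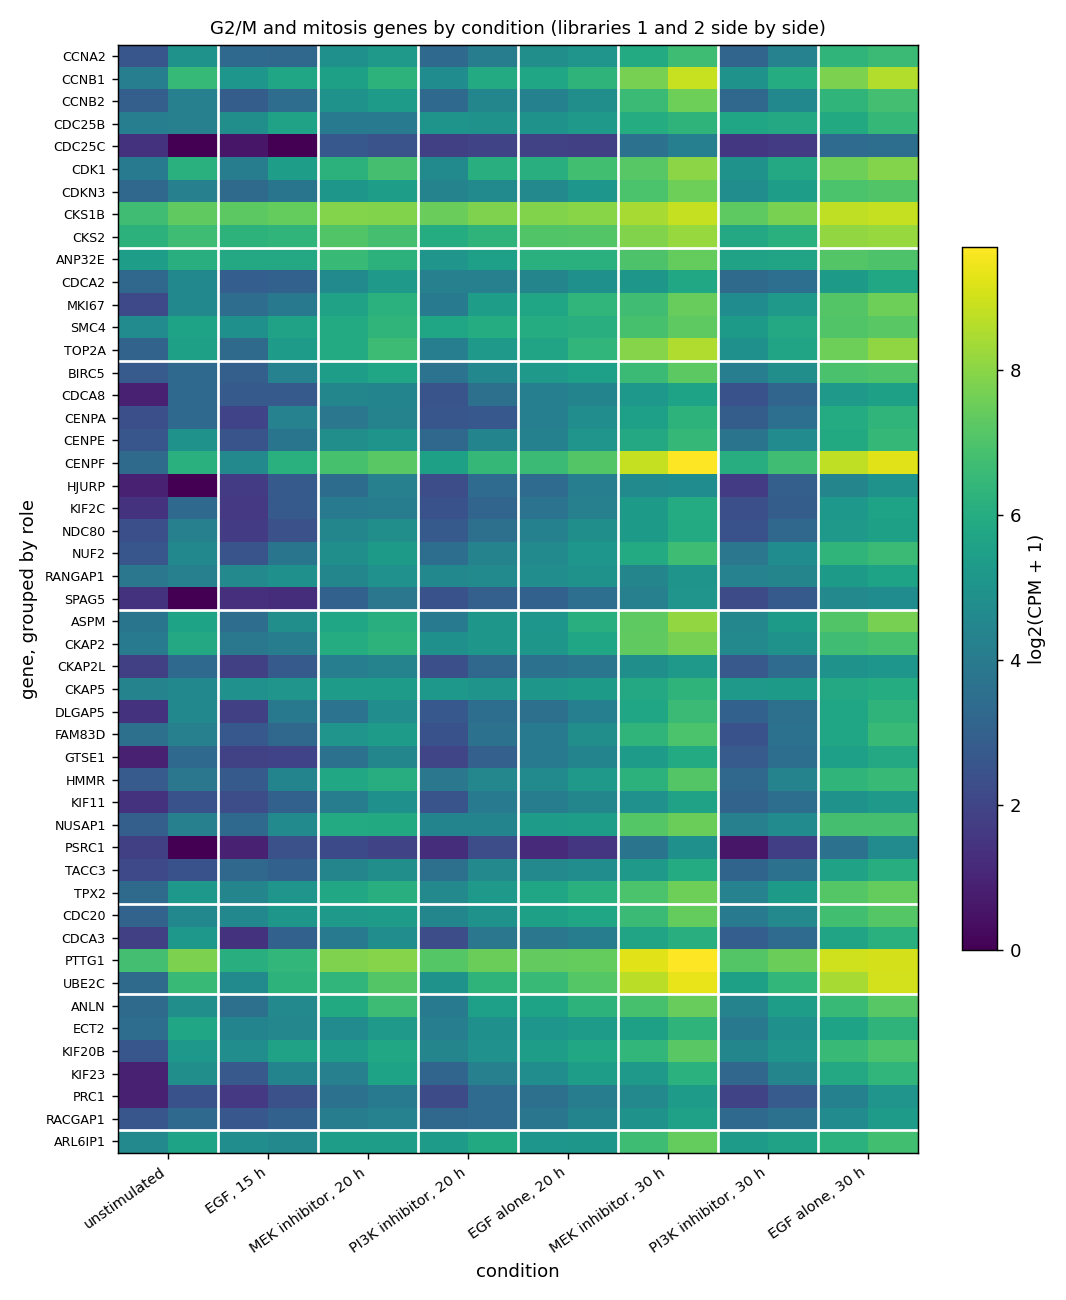
Level of each of the 49 genes (rows, grouped by role) as log2(CPM + 1), in the 8 conditions (columns), with library 1 left and library 2 right within each condition. Levels are low in unstimulated cells and at 15 h, higher at 20 h, and highest at 30 h with the MEK inhibitor and with EGF alone, while the PI3K inhibitor columns at 30 h look like those at 20 h.

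The genes were lower with the PI3K inhibitor at 20 h, 5 h after its addition, and much lower at 30 h. At 20 h 36 of the 49 fell and 1 rose against EGF alone, where 11.9% of all genes tested fell and 11.4% rose. The median log2 fold change was -0.97 over the genes and 0.00 over all genes tested. CENPA, the histone variant that marks centromeres, stood at 5.05 and 5.44 CPM with the PI3K inhibitor and 17.0 and 25.8 CPM with EGF alone (-1.96 (SE 0.28, adjusted p = 5.50e-07)). GTSE1 stood at 3.09 and 6.92 CPM with the PI3K inhibitor and 14.4 and 19.8 CPM with EGF alone (-1.86 (SE 0.28, adjusted p = 9.75e-07)). NDC80 fell by 1.5 on the log2 scale, KIF23, a kinesin of the central spindle, by 1.44, FAM83D, which positions a kinase on the spindle, by 1.43, and TOP2A, the topoisomerase that untangles sister chromatids, by 1.36. These 6 genes were picked as called falls with the same sign in both libraries, so the agreement of the libraries follows from that choice. The groups did not overlap for any of them, and the share of all genes without overlap was not counted.

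All 6 cytokinesis genes fell at 20 h, as did 9 of 11 centromere and kinetochore genes, 10 of 13 spindle genes, 3 of 5 genes of chromosomes and chromatin, 3 of 4 of anaphase and exit, and 5 of 9 of cyclins, CDK1 and their regulators. The last group was mixed. CDK1 itself fell by 1.05 and CCNA2, which encodes cyclin A2, by 1.30, while the CDC25 phosphatase genes CDC25B (-0.04, SE 0.16) and CDC25C (0.00, SE 0.47) were not called. The gene that rose was ARL6IP1, an endoplasmic reticulum protein gene, at 39.6 and 58.8 CPM with the PI3K inhibitor and 33.2 and 33.8 CPM with EGF alone (0.48 (SE 0.16, adjusted p = 0.0218)). Its call was lost with library totals in place of TMM (0.34, adjusted p = 0.127 in the same edgeR test), and reads of its 3 named pseudogenes may have been counted with it. Without the PI3K inhibitor sum of library 1 at 20 h, 24 of the 49 genes fell and 0 rose.

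At 30 h all 49 genes were lower with the PI3K inhibitor than with EGF alone, where 20.0% of all genes tested fell and 19.7% rose. The median log2 fold change was -2.40, against 0.01 over all genes, and the range ran from -3.53 to -0.43. With library totals in place of TMM the median of all genes was -0.22 and the same 49 fell, where 33.1% of all genes tested fell. CCNB1 stood at 30.0 and 62.7 CPM with the PI3K inhibitor and 216 and 375 CPM with EGF alone, 6.44-fold lower (-2.69 (SE 0.12, adjusted p = 1.10e-23)). CDK1 stood at 30.3 and 56.8 CPM with the PI3K inhibitor and 187 and 236 CPM with EGF alone, 4.96-fold lower (-2.31, SE 0.13). The groups did not overlap for either gene.

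The deepest falls were in 3 spindle genes, 2 centromere and kinetochore genes and 1 gene of mitotic entry and exit. PSRC1 had 2 and 15 UMIs with the PI3K inhibitor, or 0.496 and 2.44 CPM, and 11.6 and 24.6 CPM with EGF alone (-3.53 (SE 0.30, adjusted p = 5.35e-14)). FAM83D stood at 4.47 and 11.2 CPM with the PI3K inhibitor and 51.9 and 92.7 CPM with EGF alone, 8.94-fold lower (-3.16 (SE 0.16, adjusted p = 3.08e-22)). CENPA followed with -3.05 (SE 0.17), KIF2C with -2.99 (SE 0.19), CDCA3 with -2.90 (SE 0.19) and DLGAP5 with -2.83 (SE 0.17). These 6 genes were also picked for a large called fall with the same sign in both libraries. In each of them both libraries with the PI3K inhibitor lay below both with EGF alone, which that choice favours.

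The smallest falls were those of CDC25B, at 50.6 and 57.0 CPM with the PI3K inhibitor and 58.0 and 86.3 CPM with EGF alone (-0.43 (SE 0.12, adjusted p = 0.00209)), CKAP5, a microtubule polymerase gene (-0.70), ARL6IP1 (-1.06) and RANGAP1, the activator of the Ran GTPase, part of which sits at kinetochores (-1.16). CDC25B was the gene whose call did not hold, being lost with DESeq2, without the library term, with thinned cells, and without either sum of library 2. By role, the median log2 fold change at 30 h was -2.73 for anaphase and exit, -2.52 for centromere and kinetochore, -2.51 for the spindle, -2.24 for chromosomes and chromatin, -2.19 for cyclins, CDK1 and their regulators, and -2.0 for cytokinesis.

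The genes with a CHR element in the promoter had a median log2 fold change of -2.42 with the PI3K inhibitor at 30 h (31 genes), and those without one -2.03 (11 genes). At 20 h the medians were -1.0 and -0.40. The ranges overlapped at both times, from -3.53 to -0.70 and from -2.99 to -0.43 at 30 h. In other comparisons the genes with a CHR element did not change more. From 20 to 30 h with EGF alone the medians were 1.32 with the element and 1.48 without it. For the MEK inhibitor at 30 h they were 0.10 and 0.16. None of these differences was tested.

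The fall at 30 h went with the lack of a rise. Between 20 and 30 h with the PI3K inhibitor 3 of the 49 genes rose and 2 fell, where 5.49% of all genes tested rose and 5.6% fell, and the median log2 fold change was 0.09. CDC25B stood at 50.6 and 57.0 CPM at 30 h and 31.1 and 30.6 CPM at 20 h (0.75 (SE 0.15, adjusted p = 2.64e-04)), CDKN3 rose by 0.66 and TOP2A by 0.59. CDCA2, which brings a phosphatase to chromatin, stood at 9.18 and 10.6 CPM at 30 h and 17.7 and 17.8 CPM at 20 h (-0.93 (SE 0.22, adjusted p = 0.00235)), and TACC3, a stabilizer of spindle microtubules, fell by 0.72. Leaving out any 1 of these 4 sums left 1 to 3 of the 5 calls, so these changes rest on single sums. With EGF alone all 49 rose over the same interval. The test of that difference, the PI3K inhibitor effect at 30 h minus the effect at 20 h, called 41 of the 49 genes, all lower at 30 h, where 3.25% of all genes tested were lower and 2.4% higher. The median of the difference was -1.34 on the log2 scale, and it was largest for PSRC1 (-4.12, SE 0.72), CDC25C (-2.20, SE 0.60) and CCNB1 (-1.99, SE 0.21). The 8 genes not called included CDC25B (-0.39), ANP32E (-0.48) and GTSE1 (-0.74). Without the PI3K inhibitor sum of library 2 at 20 h 25 genes were called. Both inhibitor effects at each time were taken against the same EGF sums.

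**Figure D3:**
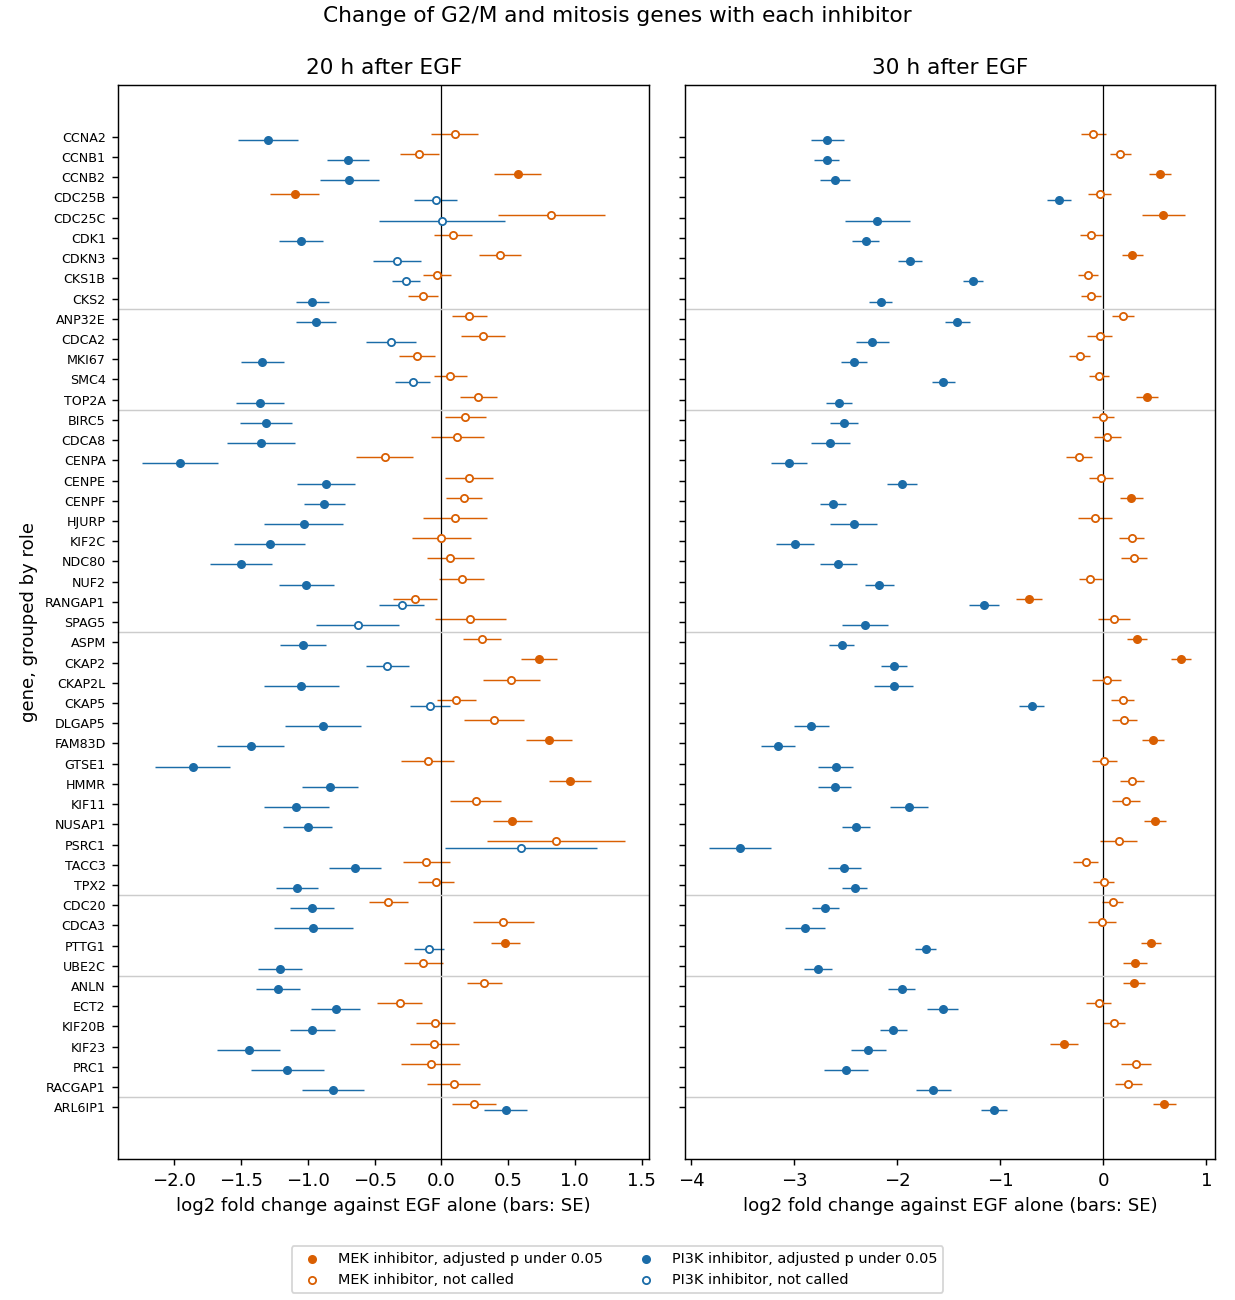
Log2 fold change of each gene against EGF alone at 20 h (left) and 30 h (right), with bars for the standard error, for the MEK inhibitor (orange) and the PI3K inhibitor (blue). Filled points are called at an adjusted p under 0.05 in edgeR's test. At 30 h every PI3K inhibitor point lies below 0 and is filled, between -3.53 and -0.43, while the MEK inhibitor points lie between -0.72 and 0.75.

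With the MEK inhibitor the genes stayed close to EGF alone. At 20 h 6 of the 49 rose and 1 fell, where 4.8% of all genes tested rose and 7.15% fell. The share called was 14.3% of the 49 against 11.9% of all genes tested, and the median log2 fold change was 0.12. With library totals in place of TMM 5 rose and 2 fell, where 3.67% of all genes tested rose and 8.82% fell. HMMR, a microtubule-binding protein gene of the spindle (gene at chr5:163460203-163491945 in GRCh38), stood at 55.0 and 63.9 CPM with the MEK inhibitor and 24.0 and 37.0 CPM with EGF alone (0.96 (SE 0.16, adjusted p = 1.38e-05)), so that both libraries were higher and the groups did not overlap. FAM83D rose by 0.80 (SE 0.17), CKAP2, a gene of spindle pole and microtubule stability, by 0.73 (SE 0.14), CCNB2 by 0.57, NUSAP1, a protein that bundles spindle microtubules, by 0.53 and PTTG1 by 0.48. The gene that fell was CDC25B (chr20:3786772-3806121), at 15.5 and 15.4 CPM with the MEK inhibitor and 29.5 and 35.7 CPM with EGF alone (-1.10 (SE 0.18, adjusted p = 1.65e-05)). Reads of HMMR and its antisense gene HMMR-AS1 overlap in exons, and the labels do not say whether counting used strand. Of the 7 calls, that of HMMR was kept under all alternatives but the fit without the library term, and without the MEK inhibitor sum of library 1 the count was 4.

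At 30 h 13 of the 49 genes rose and 2 fell with the MEK inhibitor, where 18.9% of all genes tested rose and 19.0% fell. The 15 called genes are 30.6% of the 49, against 37.8% of all genes tested. The median log2 fold change was 0.10. With library totals in place of TMM, with which the median of all genes was -0.16, 6 rose and 9 fell, so the direction of the small changes depends on the scaling. In that fit 12.1% of all genes tested rose and 29.2% fell, so the falls among the 49 did not exceed the share of all genes. The libraries also differed: 22 of the 49 genes were higher with the MEK inhibitor in library 1 and 39 in library 2, and 28 had the same sign in both. Without the EGF sum of library 2 at 30 h the count of called genes was 7, and without the MEK inhibitor sum of library 2 it was 9.

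CKAP2 (chr13:52455429-52476628) stood at 159.6 and 209 CPM with the MEK inhibitor and 103 and 116 CPM with EGF alone (0.75 (SE 0.10, adjusted p = 2.30e-08)), the groups did not overlap, and its call held under every alternative tried. ARL6IP1 rose by 0.59 (SE 0.11), CDC25C by 0.58 (SE 0.21), CCNB2 by 0.55 (SE 0.11), NUSAP1 by 0.50 (SE 0.10) and FAM83D by 0.48 (SE 0.11). PTTG1 stood at 617 and 824 CPM with the MEK inhibitor and 511 and 529 CPM with EGF alone (0.46 (SE 0.10, adjusted p = 1.03e-04)). Of these, the call of CDC25C was lost with library totals, and TOP2A, ASPM, UBE2C, ANLN, CDKN3 and CENPF, which rose by 0.27 to 0.43, lost theirs too.

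RANGAP1 (chr22:41245611-41286251) fell at 30 h, to 20.3 and 31.1 CPM with the MEK inhibitor, against 37.9 and 48.6 CPM with EGF alone (-0.72 (SE 0.13, adjusted p = 1.00e-05)), and the groups did not overlap. KIF23 stood at 36.1 and 71.6 CPM with the MEK inhibitor and 56.4 and 83.1 CPM with EGF alone (-0.38 (SE 0.14, adjusted p = 0.022)), and these groups overlapped. CCNB1, CDK1 and CCNA2 were not called, with log2 fold changes of 0.16 (SE 0.10), -0.12 (SE 0.11) and -0.10 (SE 0.12). The median share of mitochondrial-encoded UMIs at 30 h was 6.05% and 5.74% in MEK-inhibited cells, against 4.89% and 4.99% with EGF alone. Among cells with at most 5% of such UMIs, 28 of the 49 genes rose, 0 fell, and RANGAP1 was not called. In that fit 11.6% of the 9578 genes tested rose and 10.7% fell. The limit kept 52 of 346 and 161 of 616 MEK-inhibited cells in libraries 1 and 2. With EGF alone it kept 136 of 245 and 174 of 344 cells, so unlike parts of the groups were compared.

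The genes also rose with time in MEK-inhibited cells. Between 20 and 30 h with the MEK inhibitor 48 of the 49 rose, where 12.0% of all genes tested rose and 9.29% fell, with a median log2 fold change of 1.32, and RANGAP1 was the exception (0.08, SE 0.16). The MEK inhibitor effect at 30 h differed from that at 20 h in 2 genes, 1 in each direction, where 2.92% of all genes tested were higher and 2.66% lower. With library totals it was 1 higher and 2 lower, and the count fell to 1 without either sum at 20 h of either library or without the EGF sum of library 1 at 30 h. CDC25B was lower with the MEK inhibitor at 20 h and not at 30 h (1.06 (SE 0.22, adjusted p = 7.93e-04)), standing at 62.2 and 78.9 CPM with the MEK inhibitor and 58.0 and 86.3 CPM with EGF alone at 30 h. For HMMR the difference was -0.69 (SE 0.20, adjusted p = 0.028), with 74.4 and 135 CPM with the MEK inhibitor and 79.0 and 93.7 CPM with EGF alone at 30 h.

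Set directly against each other, the inhibitors differed widely. At 20 h 38 of the 49 genes were higher and 1 was lower with the MEK inhibitor than with the PI3K inhibitor, where 11.2% of all genes tested were higher and 10.4% lower, and the median log2 fold change was 1.13. FAM83D stood at 32.6 and 38.6 CPM with the MEK inhibitor and 4.49 and 11.4 CPM with the PI3K inhibitor (2.23 (SE 0.24, adjusted p = 1.28e-10)), HMMR differed by 1.80, GTSE1 by 1.76, TOP2A by 1.63, the spindle gene CKAP2L by 1.57 and NDC80 by 1.57. CDC25B was the one that was lower, at 15.5 and 15.4 CPM with the MEK inhibitor and 31.1 and 30.6 CPM with the PI3K inhibitor (-1.06 (SE 0.20, adjusted p = 6.27e-05)).

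At 30 h all 49 genes were higher with the MEK inhibitor than with the PI3K inhibitor, where 21.2% of all genes tested were higher and 20.3% lower, with a median log2 fold change of 2.41 and a range of 0.40 to 3.68. PSRC1 differed by 3.68 (SE 0.29), FAM83D by 3.64 (SE 0.15), KIF2C by 3.27 (SE 0.18) and CCNB2 by 3.16 (SE 0.14). UBE2C, the ubiquitin-conjugating enzyme of the anaphase-promoting complex, stood at 411 and 665 CPM with the MEK inhibitor and 44.2 and 84.6 CPM with the PI3K inhibitor (3.08 (SE 0.14, adjusted p = 5.03e-25)), and DLGAP5 differed by 3.04. The smallest difference was that of RANGAP1, at 20.3 and 31.1 CPM with the MEK inhibitor and 18.9 and 20.3 CPM with the PI3K inhibitor (0.44 (SE 0.15, adjusted p = 0.014)).

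The same genes were then summed in single cells. Each cell was thinned at random to 3000 UMIs, which left out 0 of 4837 cells, and a cell was counted as high when the 49 genes held at least 15 of those 3000, or 0.5%. At 20 h 9.72% and 18.0% of cells were high in libraries 1 and 2 with the MEK inhibitor (13.9% ± 5.88, SD, n = 2), 1.20% and 6.42% with the PI3K inhibitor (3.81% ± 3.69) and 6.16% and 18.5% with EGF alone (12.3% ± 8.69). At 30 h the shares were 29.8% and 62.7% with the MEK inhibitor (46.2% ± 23.3), 2.39% and 6.75% with the PI3K inhibitor (4.57% ± 3.08) and 49.4% and 75.6% with EGF alone (62.5% ± 18.5). Both libraries were lower with the PI3K inhibitor than with the MEK inhibitor or EGF alone at 30 h, and these groups did not overlap, whereas the MEK inhibitor and EGF groups did.

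Within each library the order at 30 h was the same at this limit, while at a limit of 30 UMIs, or 1%, the share under MEK inhibition exceeded that with EGF alone in both libraries (31.0% and 21.8% as means of the 2 libraries). In library 1 the exact 95% binomial interval, which covers counting error only, was 25% to 34.9% of 346 cells with the MEK inhibitor and 43.0% to 55.8% of 245 cells with EGF alone. In library 2 it was 58.7% to 66.5% of 616 cells with the MEK inhibitor and 70.7% to 80% of 344 cells with EGF alone. Without thinning the shares at 30 h were 30.3% and 62.3% with the MEK inhibitor, 1.33% and 6.35% with the PI3K inhibitor and 48.6% and 76.5% with EGF alone. Of unstimulated cells 0 of 175 were high in library 1, which by the rule of 3 counts over the number of cells allows a share of up to 1.71%, and 1 of 29 in library 2, and at 15 h 0.615% and 1.56% were high. Cells within 12 to 17 UMIs, near the limit of 15, made up 7.71% of all cells.

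**Figure D4:**
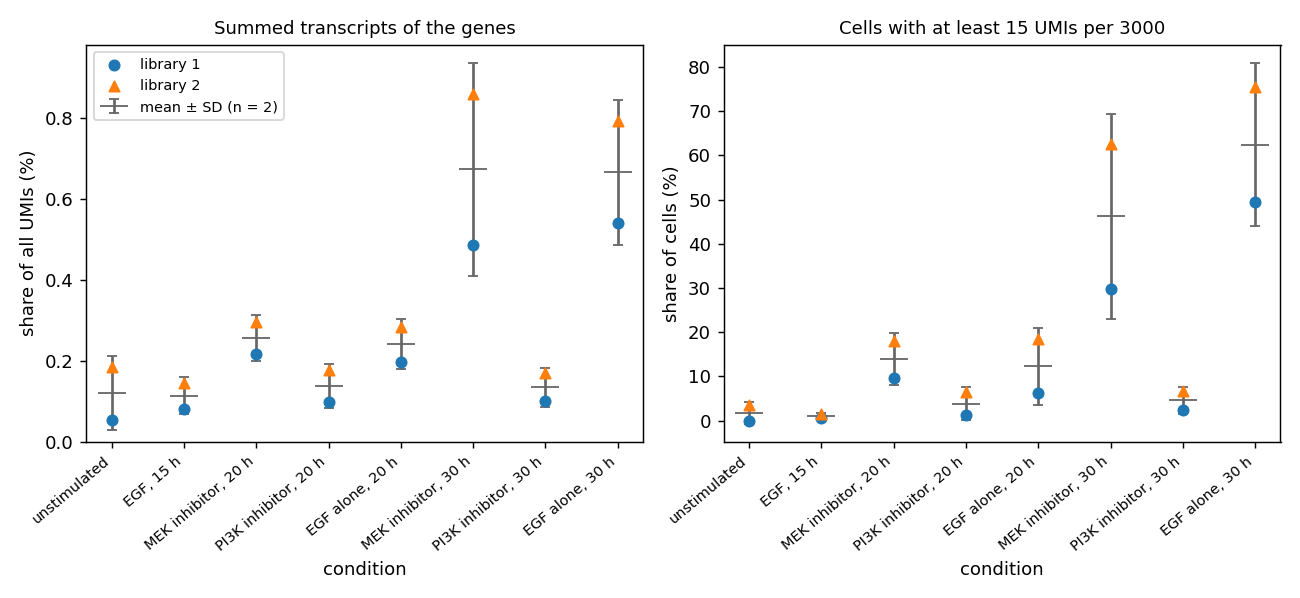
Share of all UMIs taken by the 49 genes (left, %) and share of cells with at least 15 UMIs of the genes per 3000 (right, %) in each of the 8 conditions. Circles are library 1, triangles library 2, and bars the mean ± SD of the 2 libraries. The PI3K inhibitor at 30 h stays at 0.0997% and 0.169% of UMIs, and library 2 lies above library 1 in every condition.

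The summed level of the MEK-inhibited cells hid a wider spread between cells than with EGF alone. At 30 h 66.2% and 29.6% of cells with the MEK inhibitor had 5 or fewer UMIs of the genes per 3000, against 86.4% and 70.0% with the PI3K inhibitor and 31.4% and 11.6% with EGF alone. At the other end 16.5% and 45.6% had 30 or more with the MEK inhibitor, and 9.80% and 33.7% with EGF alone. With the PI3K inhibitor 0 of 376 and 0 of 504 cells had 30 or more, which by the same rule of 3 counts allows shares of up to 0.798% and 0.595%. Between these, 6 to 14 UMIs were found in 4.05% and 7.79% of cells with the MEK inhibitor, 11.2% and 23.2% with the PI3K inhibitor and 19.2% and 12.8% with EGF alone. In each library the MEK inhibitor thus had more cells at both ends and fewer between them than EGF alone. The limits of 5 and 30 UMIs were chosen after the values were seen, and the spread was not tested.

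Those orders also held with cells thinned to 6000 UMIs and without the 10% of cells with most UMIs. Among high cells at 30 h the median was 32 and 37 UMIs per 3000 with the MEK inhibitor and 23 and 28 with EGF alone. Per high cell, with each gene left out of the sum that defined the cells it was measured in, 39 of the 49 genes had more UMIs under MEK inhibition than with EGF alone in both libraries and 3 had fewer, with a median ratio of 1.29 in library 1 and 1.28 in library 2. The genes moved together and these cells had the higher sums, so the 39 are not separate results. The share over all genes in the same cells was not counted. TOP2A had 1.64 UMIs per 3000 in high cells of each library with the MEK inhibitor, and 0.881 and 1.15 with EGF alone. NUSAP1 had 0.835 and 0.878 UMIs with the MEK inhibitor and 0.453 and 0.475 with EGF alone. RANGAP1, GTSE1 and MKI67 were the 3 with fewer, RANGAP1 at 0.0777 and 0.127 UMIs with the MEK inhibitor and 0.117 and 0.197 with EGF alone. Before thinning, high cells had medians of 17250 and 14780 UMIs in all with the MEK inhibitor and 18530 and 15900 with EGF alone. The part of doublets that share a tag was not tested.

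**Figure D5:**
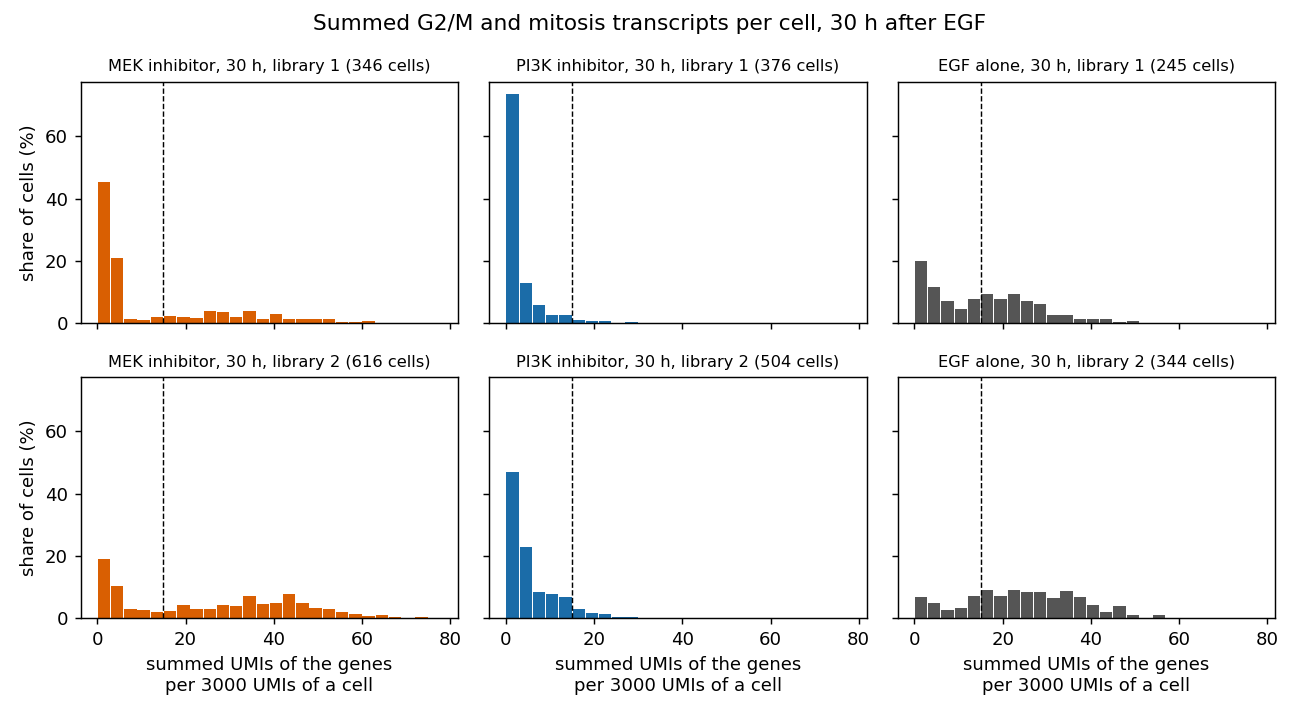
Share of cells (%) by the summed UMIs of the 49 genes per 3000 UMIs of a cell, at 30 h, for the MEK inhibitor, the PI3K inhibitor and EGF alone (columns) in libraries 1 and 2 (upper and lower). The dashed line marks 15 UMIs. MEK-inhibited cells form a low group and a wide high group with few cells between, and PI3K-inhibited cells stay low. Cells with EGF alone spread around the line in library 1 (median 14 UMIs) and lie mostly above it in library 2 (median 24).

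A list of 55 other genes linked to mitosis and outside the 49 was counted in the same fits. It holds kinesin, kinetochore, condensin, cohesion and spindle genes, and some of other classes, such as LBR and PIF1. With the PI3K inhibitor 38 of 55 fell and 1 rose at 20 h, where 11.9% of all genes tested fell and 11.4% rose. At 30 h 52 fell, where 20.0% of all genes tested fell, with a median log2 fold change of -1.84. The largest falls at 30 h were those of PIF1, a DNA helicase gene (-5.78, SE 0.43), KIF20A, a kinesin of cytokinesis (-3.49, SE 0.30), and DEPDC1 (-3.04, SE 0.22). With the MEK inhibitor 2 rose and 3 fell at 20 h, so that 9.09% of the 55 were called, against 11.9% of all genes tested. At 30 h 8 rose and 12 fell, or 36.4% called against 37.8% of all genes tested, so neither count exceeded that of all genes. LBR, the lamin B receptor gene, fell by 1.09 at 30 h and PIMREG rose by 0.77. With EGF alone 45 of the 55 rose between 20 and 30 h, against all of the 49 and 4.51% of all genes tested. Promoters of 49 of these 55 genes were in the table, and 67.3% held a CHR element and 71.4% a CCAAT box.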

How the data were processed

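Single-cell RNA was measured in 2 pooled libraries of MCF10A cells. The authors deposited UMI counts per gene and cell with a sample tag for each cell, made with Cell Ranger 3.0.2, Seurat and GRCh38 per the submitters' processing notes. The labels do not say whether counting used strand. Of 8641 and 6161 barcodes with tag calls, 4848 (56.1%) and 2478 (40.2%) were tag doublets and are not among the 2616 and 2221 deposited cells. Barcodes with a single tag numbered 3177 and 3421, so a further part of these was left out, a larger one in library 2. How they were filtered is not stated in the sources at hand. No further doublet caller was run, and doublets that share a tag remain. The highest mitochondrial share of a cell was 9.96% and 10.0%.

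UMI counts were summed per library and condition over the 16387 genes in both tables. Sums were filtered with filterByExpr, scaled with TMM and fitted with edgeR 4.0.16 (limma 3.58.1, R 4.3.3; quasi-likelihood F test, 7 residual degrees of freedom), with a term for the library and 1 per condition. P-values were adjusted by Benjamini-Hochberg over 11147 genes. The library term follows from the design, since each replicate was pooled into 1 tube. Over 4706 genes of at least 20 CPM, deviations of sums from their condition means correlated within a library with a median of 0.588 over 28 pairs (0.281 to 0.677). On simulated counts for the MEK inhibitor at 30 h, with 10981 genes, the fit called 47.0% of genes with a log2 change of 0.5, 75.4% at 1 and 93.9% at 2, and 0.0556% of 10784 unchanged genes. Every simulated gene had the same spread, and only 65 or 66 genes were changed at each size. In the data 37.8% of all genes tested were called in this comparison, so these shares need not hold for the real calls.

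Each cell was thinned to 3000 UMIs with seed 1. Motifs were searched on both strands in RefSeq promoters, and gene coordinates are those of the GRCh38 annotation. Alternatives were library totals, RLE size factors, DESeq2 1.42.0, no filter on low counts, no library term, no cells in the top 10% of UMIs, thinned cells, cells with at most 5% mitochondrial UMIs, and leaving out each sum. In each comparison the text names the 6 called genes with the largest rise and the 6 with the largest fall that had the same sign in both libraries, and those called against the majority. The genes and lists were chosen with earlier results of these data known. Pseudogene names match CKS1B (6), UBE2C (4), ARL6IP1 (3) and, with 1 each, MKI67, CDC20, CCNB2, DLGAP5, CKAP2, SMC4 and RACGAP1, whose counts may hold reads of these copies.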

Additional observations from a re-analysis of the deposited data

Results flagged for a closer look

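The effect of the PI3K inhibitor differed between the time points in 41 of the 49 genes. In each of the 41 the log2 fold change against EGF alone was lower at 30 h than at 20 h, by the test of the difference itself in edgeR with Benjamini-Hochberg adjustment, and 3.25% of all genes tested were lower. CCNB1 is an example, with a difference of -1.99 (SE 0.21, adjusted p = 1.90e-09), from a log2 fold change of -0.70 at 20 h and -2.69 at 30 h, and the difference was negative in both libraries for all 49 genes.

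The effect of the MEK inhibitor differed between the time points in 2 of the 49 genes by the same test, where 2.92% of all genes tested were higher and 2.66% lower. CDC25B had a log2 fold change of -1.10 at 20 h and -0.04 at 30 h, a difference of 1.06 (SE 0.22, adjusted p = 7.93e-04). HMMR had 0.96 at 20 h and 0.28 at 30 h, a difference of -0.69 (SE 0.20, adjusted p = 0.028).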

How the results depend on the processing

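None of the 108 calls of a gene between an inhibitor and EGF alone changed the sign of its fold change under the alternatives, but balances of small changes did. For the MEK inhibitor at 30 h, 6 rose and 9 fell with library totals (13 and 2 with TMM), with a median of -0.08 (0.10 with TMM), and the median was -0.03 without the 10% of cells with most UMIs. Of all genes tested 12.1% rose and 29.2% fell there with library totals. For EGF at 15 h 0 rose and 3 fell without the unstimulated sum of library 1, and the median was -0.29 with thinned cells (0.09 with unthinned cells). The medians of the PI3K inhibitor from 20 to 30 h and of the MEK difference, 0.09 and -0.03, changed sign too, for example to -0.06 with thinned cells and to 0.20 with at most 5% mitochondrial UMIs. In 4 comparisons every alternative stayed within 1.5 times of the count: 47 to 49 of 49 genes for the PI3K inhibitor against EGF alone at 30 h, 46 to 49 for the MEK against the PI3K inhibitor at 30 h, 34 to 49 for EGF from 20 to 30 h and 39 to 48 for the MEK inhibitor from 20 to 30 h. Without the replicate block, that is without the library term, the count of called genes was 1 for the MEK inhibitor at 20 h, 2 at 30 h, 8 for the PI3K inhibitor at 20 h, 15 for the MEK against the PI3K inhibitor at 20 h, 1 for EGF at 15 h, 12 for EGF from 15 to 20 h, 0 for the PI3K inhibitor from 20 to 30 h and 0 for both differences between the times. With thinned cells, where 8043 genes and 48 of the 49 were tested, these counts were 2, 8, 20, 21, 4 (within 1.5 times), 26, 0, 0 for the MEK difference and 22 for the PI3K difference. In cells with at most 5% mitochondrial UMIs, with 9578 genes tested, the counts among the 49 were 28 for the MEK inhibitor at 30 h, 0 for EGF at 15 h, 2 for the PI3K inhibitor from 20 to 30 h, 6 for the MEK difference and 25 for the PI3K difference. Of all 9578 genes 2134, 485, 624, 219 and 369 were called in the same order. That limit left only 16 and 6 unstimulated cells in libraries 1 and 2, and 52 and 161 MEK-inhibited cells at 30 h. DESeq2 gave 7 for the MEK inhibitor at 30 h, 3 for EGF at 15 h, 3 for the PI3K inhibitor from 20 to 30 h, 1 for the MEK difference and 27 for the PI3K difference. Over all 11147 genes it called 3143, 2538, 829, 377 and 412 in the same order. RLE size factors gave 3 for EGF at 15 h, and 3087 over all genes. Without the 10% of cells with most UMIs the counts were 9 for the MEK inhibitor at 30 h, 3 for EGF at 15 h and 3 for the PI3K inhibitor from 20 to 30 h. Over all 10963 genes tested they were 3894, 2728 and 945. Where no construction is named, the cause was not tested. Leaving out 1 sum at a time gave 4 to 8 genes for the MEK inhibitor at 20 h, 7 to 16 at 30 h, 24 to 35 for the PI3K inhibitor at 20 h, 3 to 10 for EGF at 15 h, 15 to 43 for EGF from 15 to 20 h, 1 to 3 for the PI3K inhibitor from 20 to 30 h, 1 to 2 for the MEK difference and 25 to 39 for the PI3K difference. With a limit of 0.25% of UMIs high cells were 15.8% in unstimulated cells and 8.06% at 15 h, as means of the 2 libraries. In libraries 1 and 2 these were 1 of 175 and 9 of 29 unstimulated cells, and 10 of 488 and 9 of 64 at 15 h. At the same limit the means were 34.5% (MEK inhibitor), 14.0% (PI3K inhibitor) and 37.1% (EGF alone) at 20 h, and 16.8% (PI3K inhibitor) at 30 h. With a limit of 1% they were 0.641% (MEK inhibitor) and 0.215% (EGF alone) at 20 h, and 31.0% (MEK inhibitor), 0% (PI3K inhibitor) and 21.8% (EGF alone) at 30 h, so that the order of the MEK inhibitor and EGF alone at 30 h was turned round. With 29 cells in the unstimulated sum of library 2, changes at 15 h are the least certain.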
